A study of Homo sapiens with 2 samples.

Results

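The 10 genes examined encode neuronal microtubule-associated proteins, collapsin response mediator proteins and stathmins, and they were followed in 2 RNA-seq libraries of SH-SY5Y cells. They were chosen by name (MAP1A, MAP1B, MAP2, MAP4, MAPT, DPYSL2, DPYSL3, CRMP1, STMN1 and STMN2), with earlier results of these data known. Each name matched 1 protein-coding gene, giving 10 of the 58735 genes in the table. SH-SY5Y is an established human neuroblastoma cell line used as a neuron-like model. One library came from cells exposed for 24 h to TDCPP, a chlorinated organophosphate flame retardant, together with TiO2 NPs (titanium dioxide nanoparticles). The other came from cells titled Ctrl. The labels give no dose and no library of a single agent, so the comparison is of the mixture with the control, and both were grown in the same serum-supplemented medium. There was 1 library per group and no replicate, so no p-value is given and no difference below has a replicate check.

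Microtubules are polymers of tubulin that grow and shrink at their ends, and neurons depend on them to build and maintain axons and dendrites. Structural microtubule-associated proteins (MAPs) bind along the polymer and stabilise it, whereas stathmins bind free tubulin dimers and favour disassembly. Collapsin response mediator proteins (CRMPs) are cytosolic phosphoproteins that bind tubulin and were first described as mediators of the growth cone collapse set off by semaphorin 3A, formerly called collapsin.

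The exposed library held 15315572 reads and the control library 16471438 reads on annotated genes. The 10 genes took 15304 reads in the exposed library and 14710 in the control library. Levels are FPKM (fragments per kilobase of the gene, adjusted for library depth), and the authors' FPKM were used as scaled by them. A gene was called measured where its FPKM averaged at least 1 across the libraries, which 11409 protein-coding genes and 8 of the 10 genes reached. MAPT and STMN2 did not reach it. Differences are given as the log2 ratio, log2((exposed FPKM + 1)/(control FPKM + 1)), which understates the difference of low genes, and as the read ratio without a pseudocount with its exact binomial 95% counting interval. These intervals cover counting error between these 2 libraries only. In bulk RNA, fewer cells expressing a gene and less of its RNA per cell cannot be told apart.

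Neuronal markers were present only in part. Of 24 listed neuronal and noradrenergic markers, 8 were measured. The 24 together summed to 307 FPKM in the exposed and 291 FPKM in the control library, carried mostly by UCHL1, a neuronal ubiquitin hydrolase, at 237 and 201 FPKM and by the neurofilament gene NEFL at 55.5 and 74.0 FPKM. PHOX2A, TH, ELAVL4 and INA had 0 reads in both libraries, and the neuronal tubulin gene TUBB3 had 7 reads in the exposed and 6 in the control library. Epithelial markers summed to 412 FPKM in the exposed and 619.9 FPKM in the control library, almost all of it from the keratin genes KRT8, KRT18 and KRT19, which were the 3 measured of 8 listed, and EPCAM had 5 and 3 reads. The splicing factor gene ESRP1, also listed but below the measured level, had 71 reads in the exposed and 9 in the control library, a read ratio of 8.003 (3.99 to 18.2). The 10 mesenchymal markers, 7 of them measured, summed to 100.3 and 116 FPKM, and the 8 glial markers, 1 of them measured, to 3.45 and 2.497 FPKM in the exposed and control library. Read ratios were 0.584 for ISL1, 1.60 for SYT1 and 0.749 for NEFL among neuronal markers, 0.602 for COL1A1, 0.706 for WWTR1 and 0.704 for TWIST1 among mesenchymal ones, and 1.45 for the glial marker OLIG2. Whether the cells' identity bears on the values below was not tested.

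The microtubule genes did not move as a block. MAP2 and MAP1B were higher in the exposed library and MAP1A was lower, while MAP4 and MAPT stood close to equal. Among CRMPs, DPYSL2 and CRMP1 were higher and DPYSL3 slightly lower, and STMN1 was lower. MAP1A, MAP1B and MAP2, 3 of the 8 measured, were at least 1.5-fold apart in log2 ratio, against 4.70% of all measured protein-coding genes. The genes were chosen with earlier results of these data known, so this contrast is not independent of their choice. MAP1B and MAP2 were the 2 at least 1.5-fold higher, where the share of all measured genes was 2.53%, and MAP1A was the 1 at least 1.5-fold lower, where it was 2.16%. The 2.53% and 2.16% correspond to 289 higher and 247 lower genes, a balance that became 439 and 120 with FPKM scaled to equal sums. With a pseudocount of 5, which weighs down low genes further, none of the 3 was at least 1.5-fold apart. At a pseudocount of 1, 0 of the 8 reached a 2-fold difference, which 0.789% of measured genes did. The counting interval of the read ratio left out 1 for 7 of the 8 genes, all but MAP4, and for 57.5% of all measured genes. DPYSL3 and MAP4 depended on the scaling here. The interval of DPYSL3 held 1 under all 4 other scalings, at 0.903 to 1.06 with equal sums, and that of MAP4 left out 1 under 2 of the 4, at 1.04 to 1.13 with equal sums. The median log2 ratio was 0.16 over the 8 genes and -0.05 over all measured genes.

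**Figure D1:**
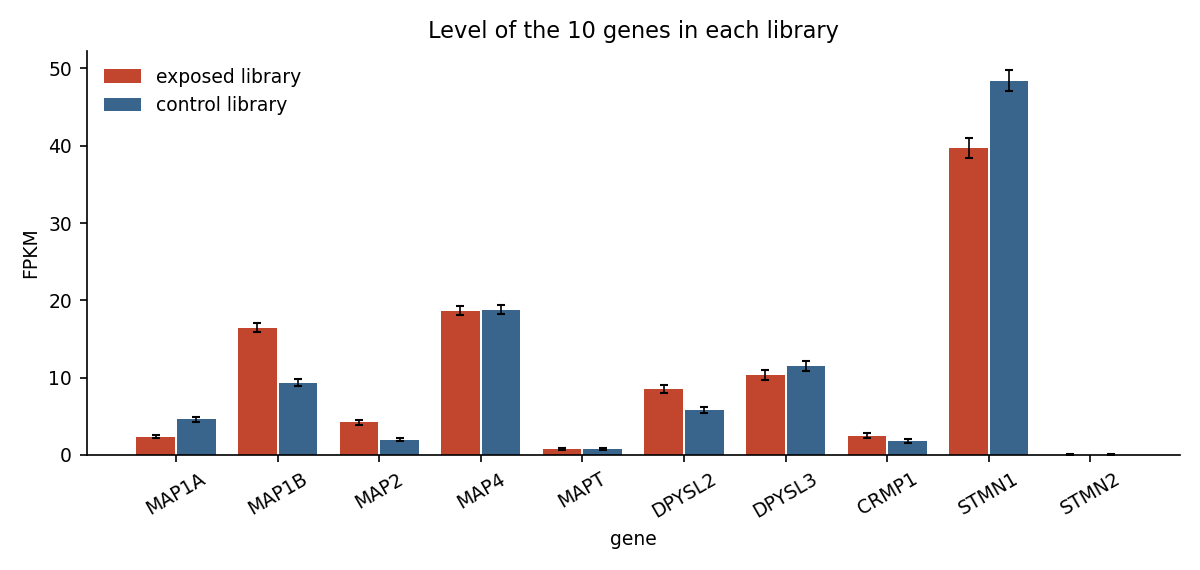
Level of each gene in the exposed (left bar) and control (right bar) library, in FPKM. Thin lines are exact Poisson 95% intervals of the reads behind each bar. STMN1 is the most abundant of the 10 in both libraries, at 39.7 and 48.4 FPKM, and STMN2 is at 0 in both.

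The order of the levels changed around the MAP1 and MAP2 genes. STMN1 and MAP4, both widely expressed outside neurons, were the first and the second in both libraries. MAP1B took the third place in the exposed library and the fourth in the control library, behind DPYSL3. MAP2 stood above MAP1A in the exposed library and below it in the control library. Neighbouring genes in this order had separate exact Poisson intervals, except CRMP1 and MAP1A at 2.43 and 2.37 FPKM in the exposed library, and MAP2 and CRMP1 at 1.93 and 1.74 FPKM in the control library.

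MAP1A and MAP1B encode large related proteins that are cleaved into heavy and light chains. In rodents MAP1B is abundant in growing axons early in development, and MAP1A in mature neurons, mainly in dendrites. MAP2 marks dendrites, MAPT encodes the axonal protein tau, and MAP4 is the relative of both that dividing and non-neuronal cells use.

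MAP1B (ENSG00000131711, GRCh38 chromosome 5, 72107234 to 72209570, plus strand) stood at 16.5 FPKM in the exposed and 9.34 FPKM in the control library, from 3281 and 1888 reads. Its read ratio was 1.76 (1.67 to 1.87) and its log2 ratio 0.76, at percentile 98.7 of measured genes. MAP1A (ENSG00000166963, chromosome 15, 43510958 to 43531620, plus strand) stood at 2.37 FPKM in the exposed and 4.59 FPKM in the control library, from 397 and 781 reads. Its read ratio was 0.516 (0.456 to 0.583) and its log2 ratio -0.73, at percentile 0.806. The 2 relatives thus differed in opposite directions. Within a library, where scaling between libraries plays no part, the FPKM of MAP1B was 6.955 times that of MAP1A (6.27 to 7.74) in exposed cells and 2.03 times (1.87 to 2.21) in control cells. The shorter relative MAP1S, which is expressed in many tissues, stood at 10.6 and 12.5 FPKM, a read ratio of 0.848 (0.773 to 0.930). The 3 genes together summed to 29.4 FPKM in the exposed and 26.4 FPKM in the control library. MAP1B held 56.0% of that sum in the exposed and 35.4% in the control library, and MAP1A 8.05% and 17.4%.

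MAP2 (ENSG00000078018, chromosome 2, 209424058 to 209734118, plus strand) stood at 4.19 FPKM in the exposed and 1.93 FPKM in the control library, from 763 and 357 reads. The read ratio was 2.17 (1.91 to 2.465), the highest of the 10 genes, and the log2 ratio 0.82, at percentile 98.9 of measured genes. Its level was low beside other genes, at percentile 20.5 of mean FPKM. MAP4 (ENSG00000047849, chromosome 3, 47850690 to 48089272, minus strand) stood at 18.7 FPKM in the exposed and 18.8 FPKM in the control library, from 4396 and 4493 reads, with a read ratio of 0.993 (0.952 to 1.035). MAPT (ENSG00000186868, chromosome 17, 45894382 to 46028334, plus strand) stood at 0.752 FPKM in the exposed and 0.771 FPKM in the control library, from 177 and 184 reads. Its ratio of 0.976 had a wide interval (0.789 to 1.21), so a difference of MAPT within those bounds was not detectable at this depth. The signs of the log2 ratios of MAP4 and MAPT, -0.01 and -0.02, were opposite under all 4 other scalings. MAP2 held 17.7% of the summed FPKM of MAP2, MAP4 and MAPT in the exposed library and 8.98% in the control library. MAP4 held 79.1% and 87.4%.

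**Figure D2:**
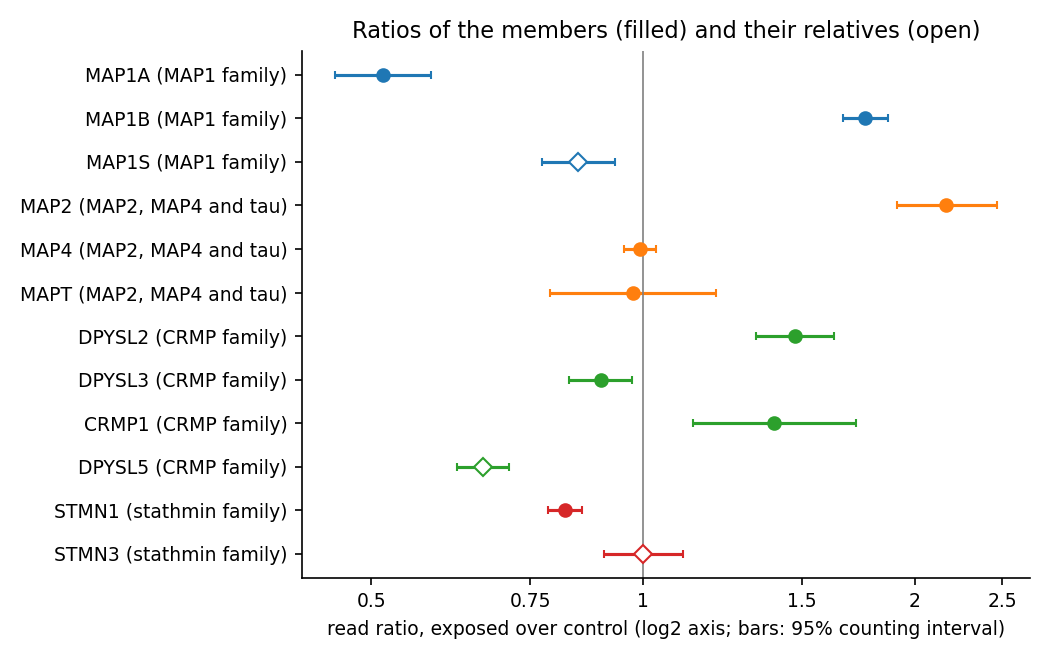
Read ratio of exposed over control for the members (filled circles) and for measured relatives (open diamonds), on a log2 axis, with 95% counting intervals. MAP2 and MAP1B lie right of 1, MAP1A and DPYSL5 left of it, and MAP4, MAPT and STMN3 have intervals that hold 1. STMN2 is not drawn because it had no reads.

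The upstream sequences of MAP1A, lower in the exposed library, and of MAP2, higher in it, are shown because these genes had the lowest and the highest read ratio. Each is the 250 bases before a RefSeq start (GRCh38.p14), 5′ to 3′ on the gene's strand, with CCAAT boxes on either strand in capitals. The MAP1A stretch is chr15:43510704-43510953, whose start lies 4 bases from a coding transcript start in GENCODE 29. The MAP2 stretch is chr2:209579082-209579331, 17 bases of which lie in an annotated exon, and MAP2 has 8 coding transcript starts in that annotation, which the gene-level values do not separate.
MAP1A: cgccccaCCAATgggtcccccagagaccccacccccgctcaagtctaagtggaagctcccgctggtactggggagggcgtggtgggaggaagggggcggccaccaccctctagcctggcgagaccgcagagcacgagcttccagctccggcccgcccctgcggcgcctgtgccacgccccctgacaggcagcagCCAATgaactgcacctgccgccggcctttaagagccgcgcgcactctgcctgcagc
MAP2: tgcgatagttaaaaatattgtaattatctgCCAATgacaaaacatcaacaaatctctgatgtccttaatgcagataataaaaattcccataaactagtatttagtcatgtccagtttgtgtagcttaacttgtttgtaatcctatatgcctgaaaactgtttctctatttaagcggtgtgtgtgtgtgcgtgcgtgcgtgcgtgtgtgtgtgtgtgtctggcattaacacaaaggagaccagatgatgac
MAP1A has 1 other window and MAP2 has 2, whose starts lie at 43517608 on chromosome 15 and at 209579607 and 209661496 on chromosome 2. None of these 3 holds a CCAAT box, and the stretches shown are the ones that do. Both MAP1B windows, with 241 and 159 of their 250 upstream bases in annotated exons, hold none of the motifs searched and are not shown. RefSeq windows, each 250 bases before and 50 after a start, were found for 7 of the 10 genes, 18 windows in all. The CCAAT box (CCAAT, both strands) was in 4 of the 18 windows, of MAP1A, MAP2, MAP4 and STMN1, and in 34.6% of all 35116 windows. The core of the amino acid response element bound by ATF4 and C/EBP factors (TGATGNAA, both strands) was in 0 of the 18 and in 3.62% of all windows. The cyclic AMP response element (TGACGTCA) was in 0 of the 18 and in 1.85% of all windows.

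The measured CRMP genes differed less in log2 ratio than MAP1A, MAP1B and MAP2, though more than MAP4. For DPYSL3 the order against MAP4 depended on the scaling. The log2 ratios of DPYSL3 and MAP4 were -0.030 and 0.107 with equal sums, and -0.066 and 0.070 with whole read totals. DPYSL2 (ENSG00000092964, GRCh38 chromosome 8, 26514022 to 26658178, plus strand) encodes the best studied CRMP, which carries tubulin dimers to growing axon tips. It stood at 8.53 FPKM in the exposed and 5.79 FPKM in the control library, from 983 and 677 reads. Its read ratio was 1.47 (1.33 to 1.63) and its log2 ratio 0.49, at percentile 96.3 of measured genes and below the 1.5-fold mark. With FPKM scaled to equal sums the log2 ratio was 0.60, past that mark. The read ratio was 1.53 to 1.60 under the 4 other scalings. CRMP1 (ENSG00000072832, chromosome 4, 5748084 to 5893058, minus strand), an effector of semaphorin 3A, stood at 2.43 FPKM in the exposed and 1.74 FPKM in the control library, from 223 and 162 reads. The ratio of its reads was 1.40 (1.14 to 1.72). DPYSL3 (ENSG00000113657, chromosome 5, 147390811 to 147510056, minus strand), which in addition bundles actin filaments, stood at 10.3 FPKM in the exposed and 11.5 FPKM in the control library, from 1166 and 1318 reads. The corresponding ratio was 0.897 (0.829 to 0.972).

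Of the CRMP genes outside the 10, DPYSL5 was the measured one. It is expressed mainly in developing neurons, and it was the most abundant CRMP gene of both libraries. It stood at 12.8 FPKM in the exposed and 19.3 FPKM in the control library, from 1433 and 2186 reads, a read ratio of 0.665 (0.622 to 0.711) and a log2 ratio of -0.55. DPYSL2 and DPYSL5 thus differed in opposite directions. Within a library the FPKM of DPYSL2 was 0.665 times that of DPYSL5 (0.612 to 0.721) in exposed cells and 0.3001 times (0.275 to 0.327) in control cells. DPYSL5 held 37.0% of the summed CRMP level in the exposed and 49.7% in the control library, DPYSL2 24.6% and 14.9%, DPYSL3 29.7% and 29.6%, and CRMP1 6.99% and 4.48%. The whole family summed to 34.7 FPKM in the exposed and 38.8 FPKM in the control library. DPYSL4 had 30 and 24 reads and the metabolic enzyme gene DPYS 4 and 2.

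**Figure D3:**
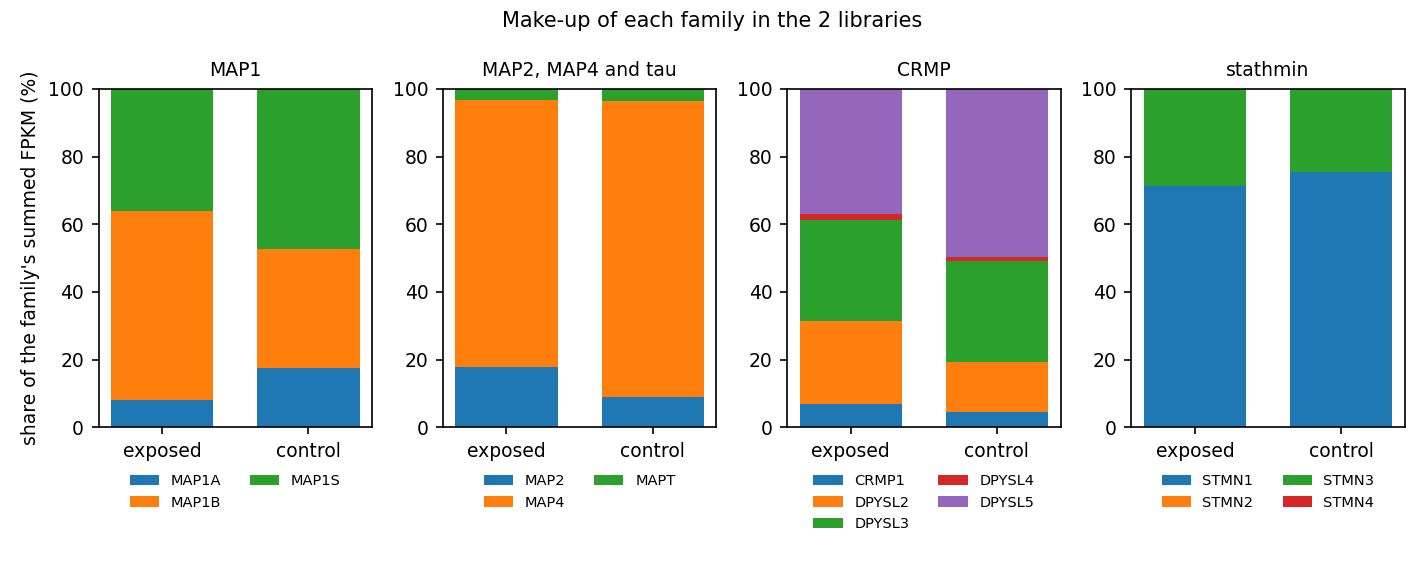
Make-up of the 4 families in the exposed (left column) and control (right column) library, as the percent of each family's summed FPKM. MAP1B takes 56.0% and 35.4% of the MAP1 family and DPYSL5 37.0% and 49.7% of the CRMP family, while the stathmin columns differ by 4 percentage points or less.

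Stathmins were represented mainly by the widely expressed STMN1 and in part by the neuron-enriched STMN3, and not by STMN2, the neuronal one that marks growth cones. STMN1 (ENSG00000117632, chromosome 1, 25884181 to 25906991, minus strand) encodes the founding stathmin, which sequesters tubulin and is switched off by phosphorylation when cells enter mitosis. It stood at 39.7 FPKM in the exposed and 48.4 FPKM in the control library, from 3918 and 4850 reads. Its read ratio was 0.819 (0.786 to 0.855) and its log2 ratio -0.28, at percentile 17.3 of measured genes. STMN2 (ENSG00000104435, chromosome 8, 79610814 to 79666175, plus strand), a membrane-anchored stathmin of growth cones, had 0 reads in the exposed and 0 in the control library. A count of 0 allows up to 3 reads (a one-sided 95% limit), which is 0.0805 FPKM in the exposed and 0.0794 FPKM in the control library, so no ratio is given. The two-sided interval in the plot of levels is wider and reaches 0.0990 and 0.0976 FPKM. STMN3, another neuron-enriched stathmin, stood at 15.8 FPKM in both libraries, from 754 and 764 reads, a read ratio of 1.001 (0.904 to 1.11). STMN4 had 4 reads in the exposed and 1 in the control library. STMN1 held 71.5% of the summed stathmin level in the exposed and 75.4% in the control library, and STMN3 28.4% and 24.5%.

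Reads of the 10 genes were separable by sequence for most of their length. No stretch of 50 bases in GENCODE 29 transcripts was shared between any of the 10. MAP1A, MAP1B, MAP2, DPYSL3 and STMN2 shared none with any other gene, MAP4, MAPT and DPYSL2 shared at most 0.304% of theirs, STMN1 1.78% and CRMP1 1.91%. The source table does not say whether counting used strand, so overlapping genes matter for a few. CRMP1 overlaps EVC on the opposite strand, which had 536 and 513 reads, and DPYSL2 overlaps PNMA2 on the opposite strand, which had 366 and 222 reads in the exposed and control library. The antisense gene AC093218.1 within MAP1B had 29 and 8 reads. How far such overlaps entered the values was not tested.

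**Figure D4:**
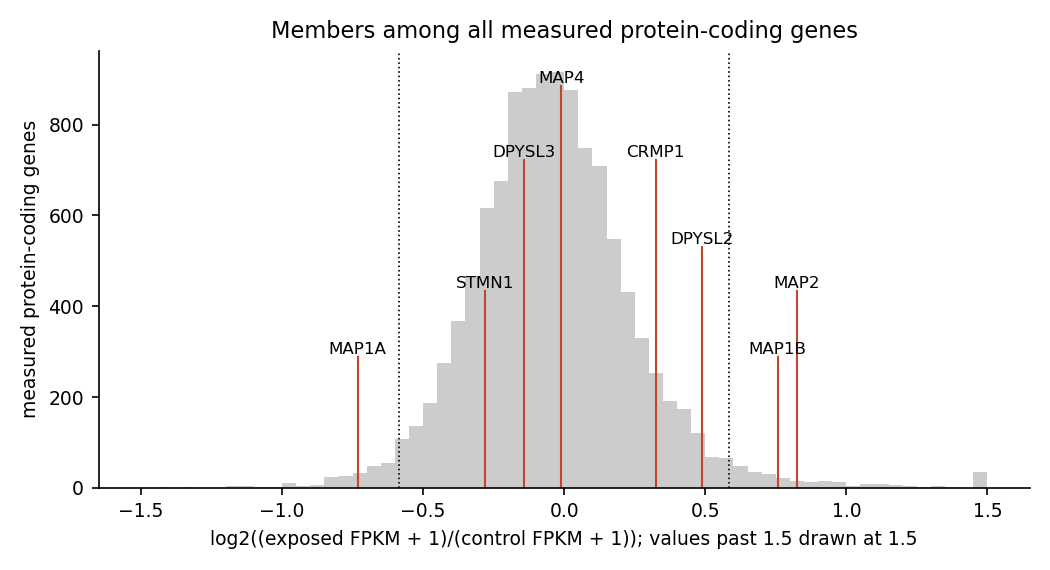
Log2 ratios of all 11409 measured protein-coding genes (grey, values past 1.5 drawn at 1.5), with the 8 measured members as red lines whose heights have no meaning. Dotted lines mark 1.5-fold, and MAP1A lies left of them while MAP1B and MAP2 lie right of them.

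Of 18 other structural MAP genes listed, 11 were measured and none was at least 1.5-fold apart, with a median log2 ratio of -0.18. Under all 4 other scalings, and with a pseudocount of 0.1, 1 of the 11 was, and it was MAP6. The share of all measured genes was 4.53% to 4.90% under those scalings and 8.44% at that pseudocount. MAP6, which encodes a protein that protects microtubules from cold, stood at 4.27 FPKM in the exposed and 2.52 FPKM in the control library, from 433 and 259 reads. Its read ratio was 1.70 (1.45 to 1.99) and its log2 ratio 0.58. DCLK2, a doublecortin-like kinase, had a read ratio of 0.716 (0.580 to 0.881). MAP1LC3B, the autophagy protein that also binds MAP1 chains, had 1.23 (1.14 to 1.32). MTUS1, MAP7D3 and MAP9 had 0.813, 0.832 and 0.863, each with an interval below 1. MAP7, MAP7D1, MAP7D2 and MAP1LC3B2 had 1.01, 1.01, 0.880 and 0.747, each with an interval that held 1. The migrating-neuron gene DCX, one of the 7 unmeasured, had 0 reads in the exposed and 1 in the control library.

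Of 21 measured genes of the semaphorin pathway, through which CRMPs were found, 15 had a log2 ratio below 0 (71.4%), as had 58.1% of all measured genes. Such counts depend on the scaling, as the median of all measured genes was -0.05 here and 0.06 with equal sums. Below that median, which splits all measured genes evenly, lay 2 of 3 ligand, 4 of 7 receptor and 7 of 11 mediator genes. Of 7 semaphorin 3 ligand genes 3 were measured, with a median log2 ratio of -0.39. SEMA3C stood at 4.57 FPKM in the exposed and 7.16 FPKM in the control library, a read ratio of 0.639 (0.566 to 0.719), SEMA3F had 0.644 (0.495 to 0.833) and SEMA3B 1.08 (0.802 to 1.46). SEMA3A, the ligand of the collapse response, was below the measured level with 82 reads in the exposed and 149 in the control library. Of 9 receptor genes 7 were measured (median -0.18), and 1 was at least 1.5-fold lower. This was the plexin gene PLXND1, at 6.89 FPKM in the exposed and 11.0 FPKM in the control library with a read ratio of 0.627 (0.580 to 0.677). Its log2 ratio of -0.60 was short of 1.5-fold under all 4 other scalings and with a pseudocount of 5. The adhesion molecule gene L1CAM had 0.704 (0.552 to 0.896) and the co-receptor gene NRP1 0.811 (0.730 to 0.900), while NRP2 and PLXNA2 had 1.06 and 1.02 with intervals that held 1. Of 13 signal mediators 11 were measured, none at least 1.5-fold apart (median -0.14). The exchange factor gene FARP2 had 0.630 (0.577 to 0.688), the kinase gene FYN 1.40 (1.30 to 1.51), MICAL2, an enzyme that oxidises actin, 1.28 (1.17 to 1.40) and the GTPase gene RHOD 1.32 (1.13 to 1.55).

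Of 32 genes of kinases that act on MAPs, CRMPs and stathmins, 27 were measured, none at least 1.5-fold apart in log2 ratio, with a median of -0.17. With a pseudocount of 0.1 instead, CDK5R1 and SGK1 were at least 1.5-fold lower, as were SEMA3C, SEMA3F and FARP2 above. At that pseudocount 8.44% of all measured genes were at least 1.5-fold apart in either direction. The largest kinase differences were CDK5R1, the neuronal activator of CDK5, at a read ratio of 0.640 (0.517 to 0.790), the polarity kinase gene BRSK1 at 1.504 (1.23 to 1.84) and SGK1 at 0.591 (0.479 to 0.727). The 8 measured of 9 phosphatase genes had a median of -0.18, and PPP5C, PPP1CC and PPP2R1A had read ratios of 0.817, 0.822 and 0.826.

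**Figure D5:**
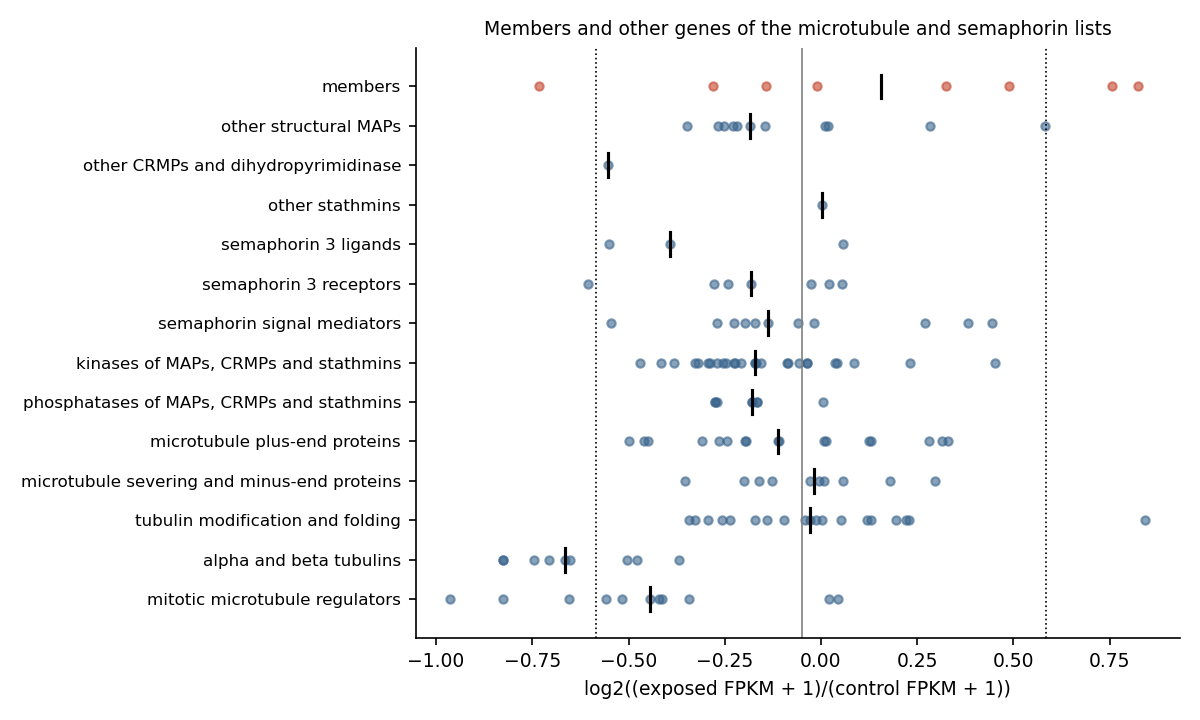
Log2 ratio of each measured gene by list, with the members in red at the top and the median of each list as a black bar. The grey line is the median of all measured genes (-0.05) and dotted lines mark 1.5-fold. The tubulin row, with a median of -0.67, lies left of the grey line with all 9 genes.

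The genes of the polymer itself were mostly lower in the exposed library. Of 13 alpha and beta tubulin genes 9 were measured, with a median log2 ratio of -0.67. At least 1.5-fold lower were 6 of the 9, against 2.16% of all measured genes, and none was higher. The 6 became 4, without TUBA1B and TUBB, with FPKM scaled to equal sums or to whole read totals, and 5 with a pseudocount of 5. TUBB4B stood at 307 FPKM in the exposed and 546 FPKM in the control library, a read ratio of 0.563 (0.549 to 0.577), and TUBB4A and TUBB2A had 0.492 and 0.579. Plus-end protein genes (17 of 21 measured, median -0.11) had none at least 1.5-fold apart. MAPRE1, TACC3 and MAPRE2 had read ratios of 0.706, 0.719 and 0.7101. Their relatives TACC2 and MAPRE3 had 1.41 and 1.29, and CLIP1 had 1.26, each with an interval above 1. Of the 17 plus-end genes, 10 had a log2 ratio below 0 (58.8%), beside 58.1% of all measured genes. Severing and minus-end genes (10 of 10 measured, median -0.02) had none either, with KATNAL1 at 0.751, FIGNL1 at 1.24 and KATNAL2 at 0.7899. Among genes that modify or fold tubulin (19 of 21 measured, median -0.03), the polyglutamylase gene TTLL1 was the 1 at least 1.5-fold apart, at 3.23 FPKM in the exposed and 1.36 FPKM in the control library. It had 89 and 38 reads and a read ratio of 2.38 (1.61 to 3.57), and TBCA and VASH1 had 0.784 and 0.721. Mitotic microtubule regulators (11 of 12 measured, median -0.44) had 3 at least 1.5-fold lower, beside the same 2.16% of all measured genes. These were KIF20A at 0.499, the proliferation marker MKI67 at 0.556 and NUSAP1 at 0.573. NUSAP1 was short of 1.5-fold with FPKM scaled to equal sums and with a pseudocount of 5, which left 2. Whether fewer cells in mitosis bore on the lower STMN1 was not tested.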

How the data were processed

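RNA was sequenced from 1 exposed and 1 control library. The authors deposited 1 table of FPKM per gene and library. No aligner or counter is named in the sources used here. Mouse builds (mm10, GRCm38) appear in the submitters' processing notes, but the identifier, start and end of all 58735 genes matched human GENCODE 29 (GRCh38), used for coordinates. Multiplied by gene length, 100% of the FPKM above 0 were whole multiples (within 0.001) of what 1 read is worth in that library, and this gave the reads.

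Ratios used a pseudocount of 1, a mean FPKM of at least 1 and a 1.5-fold mark, with no test. The functions were checked on simulated reads. Named genes were all members, measured relatives and, in other lists, the 3 largest absolute log2 ratios; genes named beyond these were chosen after their values were seen. Members and lists were chosen with earlier results of these data known. TBCE had 2 entries and the higher was kept. Python 3.11.15, pandas 2.3.3, NumPy 2.4.6, SciPy 1.17.1 and matplotlib 3.10.9 were used.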

Additional observations from a re-analysis of the deposited data

How the results depend on the processing

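No paired analysis was possible because each group had 1 library, and for the same reason no library could be left out. Rescaling moved the median of all measured genes by at most 0.11 (log2), with FPKM scaled to equal sums. The log2 ratios of MAP1A, MAP1B, MAP2, DPYSL2, DPYSL3, CRMP1 and STMN1 kept their signs under the 2 other pseudocounts and 4 other scalings. That of DPYSL3 was -0.03 with equal sums. The number of members whose counting interval left out 1 was 6 or 7 of 8 under the 4 other scalings, a comparison chosen after seeing the data. Of all measured genes, 57.1% to 57.9% had such an interval under those scalings. A pseudocount of 0.1 gave -0.93 for MAP1A and 1.08 for MAP2. A pseudocount of 5 gave -0.38 for MAP1A, 0.58 for MAP1B, 0.41 for MAP2 and 0.33 for DPYSL2. At least 1.5-fold apart were then 0 of 8 members and 1.55% of all measured genes. Equal sums gave 0.87 for MAP1B, 0.11 for MAP4 and -0.16 for STMN1, and whole read totals gave 0.070 for MAP4 and -0.20 for STMN1. The count of 3 members became 4 with equal sums (DPYSL2 added), 6 at a threshold of 1.2-fold, 0 at 2-fold and 1 of 5 at a mean FPKM of at least 5. The shares of all measured genes under these settings were, in the same order, 4.90%, 31.4%, 0.789% and 4.34%. The members' median of 0.16 became -0.010 without a filter and at a mean FPKM of at least 5, where more or fewer genes enter it. All measured genes at least 1.5-fold apart numbered 536, against 963 and 177 at pseudocounts of 0.1 and 5 and 323 of 7446 at a mean FPKM of at least 5, and 3577 and 90 passed 1.2-fold and 2-fold. Depth limited MAPT, with under 200 reads per library, and STMN2, with none.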
